A study of Mus musculus with 6 samples.

Results

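The genes described here encode the enzymes that make serine, interconvert serine and glycine and pass single-carbon units through folate, together with a serine transporter. They were Phgdh, Psat1, Psph, Slc1a4, Shmt1, Shmt2, Mthfd1, Mthfd1l, Mthfd2 and Aldh1l2, chosen by gene symbol, and all 10 were found among the 43346 genes of the deposited count table. RNA was sequenced from primary mouse embryonic fibroblasts (MEFs), non-transformed cells grown out of embryo tissue that divide for a limited number of passages. They were of the C57BL/6 strain and at passage 9, and 3 libraries came from cells given 3 µM erastin for 24 h and 3 from cells given the solvent DMSO for 24 h. Erastin is a small molecule that blocks cystine uptake by the cystine/glutamate antiporter and is used to induce ferroptosis, an iron-dependent form of cell death. The labels name no engineered allele, and the cells of all 6 libraries were grown in medium with serum, 2-mercaptoethanol and 0.1 mM non-essential amino acids, a supplement that contains serine and glycine.

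Serine is built from the glycolytic intermediate 3-phosphoglycerate by Phgdh, Psat1 and Psph in turn. A serine hydroxymethyltransferase, Shmt2 in mitochondria or Shmt1 in the cytosol, then splits serine into glycine and a carbon unit that is carried on tetrahydrofolate. In mitochondria Mthfd2 and Mthfd1l convert that unit to formate, and Aldh1l2 oxidises 10-formyltetrahydrofolate to carbon dioxide with production of NADPH. In the cytosol the trifunctional enzyme Mthfd1 takes formate back into the folate pool for purine and thymidylate synthesis. Several of these genes are known targets of ATF4, a transcription factor of the amino acid and stress response. Serine can also be turned into cysteine, and glycine and cysteine are both part of glutathione.

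Library totals ran from 13333911 to 20509970 reads, so that 3 reads corresponded to 0.140 to 0.234 CPM (counts scaled to library size, here with TMM factors). Fibroblast markers were abundant in every library: the summed level of 8 of them (Col1a1, Col1a2, Col3a1, Pdgfra, Pdgfrb, Thy1, Vim and Fn1) was 35261 to 38283 CPM with DMSO and 25322 to 26720 CPM with erastin, and 7 of the 8 were lower with erastin. All 10 proliferation markers tested were lower, with a summed level of 354 to 377 CPM with DMSO and 80.2 to 87.2 CPM with erastin. For these markers, higher and lower mean an adjusted p-value below 0.05 in the edgeR test described below. Over all genes tested, 21.6% were higher and 21.5% lower. Of the other cell types, the 4 endothelial markers summed to 4.66 to 7.10 CPM with DMSO and 13.2 to 16.4 CPM with erastin, with Kdr and Tek higher and the defining markers Pecam1 and Cdh5 at 15 reads or fewer in every library. Blood and macrophage markers (5 listed, Hbb-bs at 0 reads in all libraries) summed to 10.8 to 14.7 and 9.23 to 16.9 CPM, and epithelial markers (5 listed, 1 tested) to 2.18 to 3.25 and 2.00 to 3.17 CPM. Muscle markers (3 listed, only Des tested) summed to 35.5 to 45.3 and 65.0 to 68.4 CPM. Des was higher, and Myog was at 0 reads in all erastin libraries. Neural markers (3 listed, 2 tested, Tubb3 lower) summed to 71.6 to 100.2 and 54.4 to 61.4 CPM. The part that proliferation, or any of these cell types, had in the results on serine and folate genes was not tested. The libraries were made from whole cultures, so fewer cells of a type and less RNA per cell cannot be told apart.

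The genes of serine synthesis, the transporter and the mitochondrial folate enzymes were all higher with erastin. Of the cytosolic enzymes, Mthfd1 had the smallest rise of the 10 genes and Shmt1 did not pass the test. Of the 10 genes, all of which passed the filter on low counts, 9 were higher and 0 lower in edgeR's quasi-likelihood test, with a Benjamini-Hochberg adjusted p-value below 0.05 over all 14000 genes tested. Over all genes tested, 21.6% were called higher and 21.5% lower. In the same 9 genes every erastin library lay above every DMSO library, which was the case for 26.7% of all genes tested. A log2 fold change of at least 1 with an adjusted p-value under 0.05 was found for 5 of the 10 (Aldh1l2, Psph, Mthfd1l, Shmt2 and Phgdh), and for 4.99% of all genes tested. The median log2 fold change was 1.08 for the 10 genes and -0.0014 for all genes tested. Their summed level was 1033 to 1075 CPM with DMSO and 2140 to 2327 CPM with erastin, a ratio of the means of 2.14. The labels do not say that the libraries of a group came from separate cultures. The p-values thus set the treatment difference against a spread between these libraries that may be technical.

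**Figure D1:**
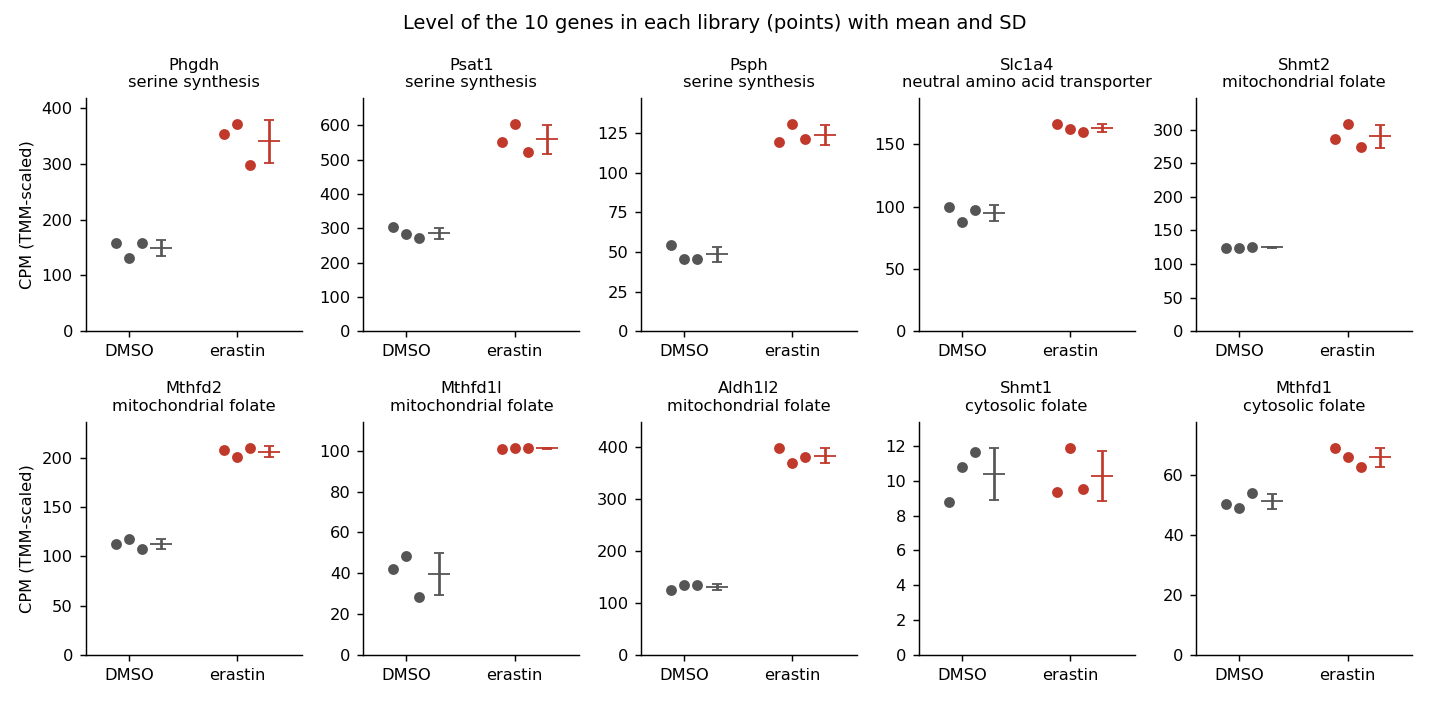
TMM-scaled CPM (vertical axis, from 0) of each of the 10 genes in the 3 DMSO (grey) and 3 erastin (red) libraries; points are libraries, and the horizontal and vertical bars beside them are the mean and SD. The groups are apart in 9 panels and overlap in the panel for Shmt1, where DMSO libraries lie at 8.76 to 11.7 CPM and erastin libraries at 9.36 to 11.9 CPM.

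All 3 enzymes of serine synthesis rose, with log2 fold changes of 0.97 to 1.35. Phgdh (ENSMUSG00000053398.7; mm10, chr3:98313170-98339990, minus strand), the NAD-dependent dehydrogenase that commits 3-phosphoglycerate to serine synthesis, was at 157, 132 and 158 CPM in DMSO replicates 1, 2 and 3 and at 353, 372 and 297 CPM in erastin replicates 1, 2 and 3. The lowest erastin library was thus well above the highest DMSO library. The erastin libraries were more spread in CPM, around a higher mean. The mean went from 149 ± 15.0 to 341 ± 38.6 CPM (SD, n = 3 each), a log2 fold change of 1.19 (SE 0.095, 95% interval 0.99 to 1.40, edgeR adjusted p = 1.90e-07).

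Psat1 (ENSMUSG00000024640.5; chr19:15904678-15947337, minus strand), the aminotransferase that takes nitrogen from glutamate to form phosphoserine, was at 302, 283 and 270.3 CPM with DMSO and at 551, 604 and 521 CPM with erastin. No library of either group came near the other group. The mean rose from 285 ± 16.0 to 558 ± 42.1 CPM (SD, n = 3 each; log2 fold change 0.97, SE 0.076, 95% interval 0.81 to 1.13, edgeR adjusted p = 1.46e-07). Psph (ENSMUSG00000029446.10; chr5:129765558-129787449, minus strand), the phosphatase of the last step, was at 54.2, 45.8 and 45.8 CPM with DMSO and at 119.6, 131 and 121 CPM with erastin. Every erastin library of Psph was more than 2 times as high as every DMSO library. Its mean rose from 48.6 ± 4.83 to 124 ± 6.11 CPM, with a log2 fold change of 1.35 (SE 0.092, 95% interval 1.15 to 1.55, edgeR adjusted p = 4.22e-08). The exons of Psph share 452 bases (10.4% of its exon bases) with Cct6a, a chaperonin subunit gene on the opposite strand. Cct6a had 2134 to 3042 unscaled reads per DMSO library and 3519 to 4345 per erastin library. Psph had fewer in each, 588 to 827 per DMSO library and 2186 to 2569 per erastin library. The part that the shared bases had in the Psph counts was not tested. The strand setting of the counting is not given in the sources used here. The 3 synthesis genes summed to 460.4 to 514 CPM with DMSO and to 939 to 1106 CPM with erastin, a ratio of the means of 2.12.

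Slc1a4 (ENSMUSG00000020142.8; chr11:20302180-20332713, minus strand) encodes ASCT1, a sodium-dependent exchanger of serine, alanine, cysteine and threonine in the plasma membrane. It was at 99.4, 87.9 and 97.4 CPM with DMSO and at 166, 163 and 160.2 CPM with erastin, with a narrow spread in both groups and a wide gap between them. The mean rose from 94.9 ± 6.14 to 163 ± 3.13 CPM (SD, n = 3 each; log2 fold change 0.78, SE 0.079, 95% interval 0.61 to 0.95, edgeR adjusted p = 1.74e-06).

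The 4 mitochondrial folate enzymes were all higher with erastin, and their summed level went from 397 to 425 CPM in the DMSO libraries to 968 to 995 CPM in the erastin libraries, a ratio of the means of 2.40. Shmt2 (ENSMUSG00000025403.4; chr10:127517123-127522444, minus strand), which makes glycine from serine in mitochondria, was at 124, 124 and 126 CPM with DMSO and at 286, 309 and 275 CPM with erastin. The DMSO libraries differed little, and the lowest erastin library was more than 2 times as high as any of them. The mean rose from 125 ± 1.22 to 290 ± 17.2 CPM (SD, n = 3 each; log2 fold change 1.22, SE 0.073, 95% interval 1.06 to 1.37, edgeR adjusted p = 1.27e-08).

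Mthfd2 (ENSMUSG00000005667.6; chr6:83305691-83325908, minus strand), the mitochondrial dehydrogenase and cyclohydrolase that is high in embryonic and proliferating cells, was at 112, 118 and 108 CPM with DMSO and at 208, 200.2 and 210.3 CPM with erastin. The groups were far apart and both tight. The mean rose from 112 ± 5.03 to 206 ± 5.33 CPM (SD, n = 3 each; log2 fold change 0.87, SE 0.074, 95% interval 0.72 to 1.03, edgeR adjusted p = 3.16e-07). In these libraries Mthfd2 was higher in the group in which all 10 proliferation markers were lower, and a relation between them was not tested.

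Mthfd1l (ENSMUSG00000040675.13; chr10:3973118-4167081, plus strand), the mitochondrial formyltetrahydrofolate synthetase that releases formate, was at 42.0, 48.3 and 28.5 CPM with DMSO and at 101, 101 and 102 CPM with erastin. The erastin libraries were almost equal, and DMSO replicate 3 was the low library of the other group. The mean rose from 39.6 ± 10.1 to 101 ± 0.328 CPM (SD, n = 3 each; log2 fold change 1.35, SE 0.14, 95% interval 1.05 to 1.65, edgeR adjusted p = 2.35e-06). Without DMSO replicate 3 the log2 fold change was 1.16. At 1690 to 2168 reads per erastin library, the SD of 0.328 CPM is below the counting error of the reads. It is therefore no measure of replicate precision. The same holds for the DMSO SDs of Shmt2 above and Tyms below.

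Aldh1l2 (ENSMUSG00000020256.10; chr10:83487450-83534140, minus strand), the mitochondrial 10-formyltetrahydrofolate dehydrogenase, was at 124, 135 and 135 CPM with DMSO and at 399.9, 371 and 382 CPM with erastin. Among the 10 genes it had the largest rise. Its mean went from 131 ± 6.05 to 384 ± 14.8 CPM (SD, n = 3 each; log2 fold change 1.55, SE 0.072, 95% interval 1.39 to 1.70, edgeR adjusted p = 1.21e-09), which placed it at rank 333 of 14000 tested genes by log2 fold change from the highest. Its exons share 1056 bases (14.1%) with D10Wsu102e on the opposite strand, which had 514 to 797 reads per library against 1647 to 8589 for Aldh1l2.

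The cytosolic enzymes had the smallest log2 fold changes of the 10 genes. Shmt1 (ENSMUSG00000020534.10; chr11:60788104-60811718, minus strand), the cytosolic serine hydroxymethyltransferase, was at 8.76, 10.8 and 11.7 CPM with DMSO and at 9.36, 11.9 and 9.54 CPM with erastin, from 116 to 201 reads per library. The groups overlapped throughout. The means were 10.4 ± 1.49 and 10.3 ± 1.43 CPM (SD, n = 3 each), and the log2 fold change of -0.023 (SE 0.20, edgeR adjusted p = 0.938) had a 95% interval of -0.45 to 0.40, so that changes within those bounds could not be told from none at this depth. Its sign turned with the scaling (0.041 with total counts). Shmt1 shares 184 exon bases (4.7%) with Smcr8 on the opposite strand. Smcr8 had 1012 to 1581 unscaled reads per DMSO library and 2182 to 2787 per erastin library, more than Shmt1 in each. The part that the shared bases had in the Shmt1 counts was not tested.

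Mthfd1 (ENSMUSG00000021048.6; chr12:76255298-76319803, plus strand) was at 50.3, 49.2 and 54.2 CPM with DMSO and at 69.2, 65.9 and 62.8 CPM with erastin. Here too the groups did not overlap, but the gap between them was smaller than in the other 8 genes that rose. The mean rose from 51.2 ± 2.62 to 66.0 ± 3.19 CPM (SD, n = 3 each; log2 fold change 0.37, SE 0.090, 95% interval 0.17 to 0.56, edgeR adjusted p = 0.0042), and the adjusted p ranged from 0.00164 to 0.0326 over the alternative analyses. Shmt1 and Mthfd1 together summed to 59.1 to 65.8 CPM with DMSO and 72.4 to 78.6 CPM with erastin.

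The unequal change of paired enzymes was measured inside each library as a ratio of read counts, which no library scaling can alter; the ratios are not corrected for gene length, so their change with treatment is read here and not their size. For each of 5 pairs the 3 erastin ratios lay above all 3 DMSO ratios. The first-named gene of each pair is among those already given as higher with erastin, so these separations partly restate those results. Every erastin library lay above every DMSO library for 26.7% of single genes tested, and the share for ratios of other pairs was not computed. The exact two-sided permutation test cannot give less than p = 0.10 with 3 against 3 libraries, and it gave p = 0.10 for every pair (0.10 after adjustment over the 5 pairs). Reads of Shmt2 per read of Shmt1 were 14.1, 11.5 and 10.8 with DMSO and 30.6, 25.9 and 28.8 with erastin, a difference of 1.23 on the log2 scale. Reads of Aldh1l2 per read of its cytosolic paralog Aldh1l1 were 4.56, 5.36 and 5.96 with DMSO and 85.9, 79.4 and 64.0 with erastin, a log2 difference of 3.85. That was the widest shift of the 5 pairs, since the paralogs moved in opposite directions: Aldh1l1 was at 27.3, 25.2 and 22.6 CPM with DMSO and at 4.66, 4.67 and 5.96 CPM with erastin (log2 fold change -2.29, SE 0.17, edgeR adjusted p = 1.23e-07).

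Reads of Mthfd1l per read of Mthfd1, the mitochondrial and cytosolic formyltetrahydrofolate synthetases, were 0.835, 0.983 and 0.526 with DMSO and 1.46, 1.53 and 1.62 with erastin. The log2 difference was 1.02, and it was 0.76 to 1.21 when each library in turn was left out. Reads of Mthfd2 per read of Mthfd1 were 2.23, 2.39 and 1.99 with DMSO and 3.01, 3.04 and 3.35 with erastin, a log2 difference of 0.51. Mthfd2l is the other mitochondrial dehydrogenase of the family and was scarce, at 64 to 156 reads per library. Reads of Mthfd2 per read of Mthfd2l were 23.2, 17.3 and 18.4 with DMSO and 29.2, 28.8 and 26.0 with erastin, a log2 difference of 0.52. Mthfd2l itself did not pass the test (log2 fold change 0.34, SE 0.24, edgeR adjusted p = 0.281).

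**Figure D2:**
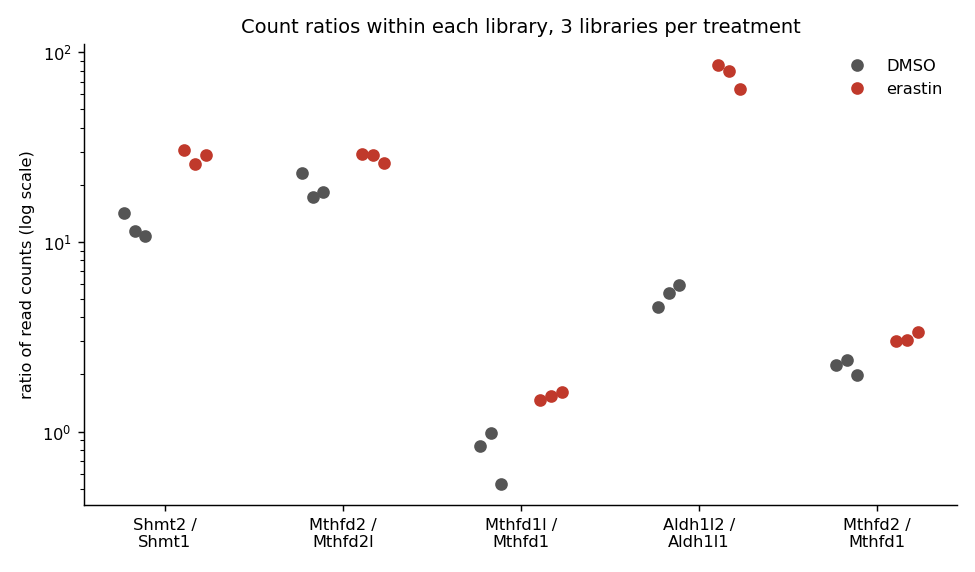
Ratio of read counts of the paired genes named on the horizontal axis in each of 3 DMSO (grey) and 3 erastin (red) libraries, on a log10 axis without correction for gene length. Red points lie above grey points in every pair, and the gap is widest for Aldh1l2 over Aldh1l1, at 64.0 to 85.9 against 4.56 to 5.96.

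To compare genes with each other, levels were divided by the length of the longest annotated transcript. With DMSO, Psat1 stood highest at 109 CPM per kb (range over libraries 103 to 115), followed by Phgdh at 78.8 (69.6 to 83.7), Shmt2 at 54.4 (54.1 to 55.1) and Mthfd2 at 54.0 (51.6 to 56.4). Shmt2 and Mthfd2 overlapped and cannot be ordered. Next came Slc1a4 at 24.2 (22.4 to 25.3) and Aldh1l2 at 21.8 (20.6 to 22.4), whose ranges touched, then Psph at 16.9 (15.9 to 18.8) and Mthfd1 at 15.8 (15.2 to 16.7), which overlapped, then Mthfd1l at 10.7 (7.73 to 13.1) and Shmt1 at 3.64 (3.07 to 4.09).

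With erastin the upper end of the order was kept: Psat1 was at 213 CPM per kb (199 to 231), Phgdh at 180.0 (157 to 196), Shmt2 at 127 (120.0 to 135) and Mthfd2 at 98.9 (96.0 to 101). None of these 4 overlapped with erastin. Aldh1l2 followed at 63.7 (61.5 to 66.3), above Psph at 43.1 (41.6 to 45.5) and Slc1a4 at 41.5 (40.8 to 42.4), which overlapped. Mthfd1l at 27.5 (27.4 to 27.6) now lay above Mthfd1 at 20.4 (19.4 to 21.4) in every library, the reverse of their order with DMSO. Shmt1 was again the lowest, at 3.59 (3.27 to 4.17).

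**Figure D3:**
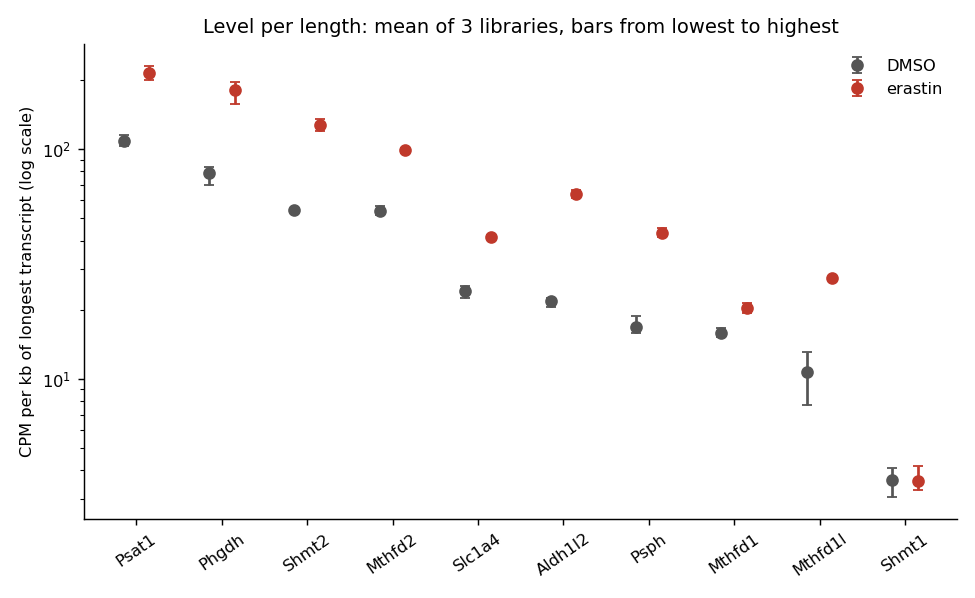
CPM per kb of the longest transcript (log10 axis) for the 10 genes, ordered by their level with DMSO; points are means of 3 libraries and bars run from the lowest to the highest library. Mthfd1l passes from below Mthfd1 (10.7 against 15.8) with DMSO to above it (27.5 against 20.4) with erastin, and Shmt1 is lowest in both groups.

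Other genes of serine, glycine and folate metabolism moved in both directions. Of 46 listed genes 36 could be tested, of which 10 were higher, 8 lower and 18 did not pass in the same edgeR test. Their median log2 fold change was 0.06. The shares of all genes tested were 21.6% higher and 21.5% lower. The 10 that could not be tested (Slc7a10, Sds, Mthfs, Ftcd, Folr2, Gldc, Tdh, Gnmt, Dmgdh and Pipox) had at most 16 reads in any library. They include Gldc, the decarboxylase of the glycine cleavage system.

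**Figure D4:**
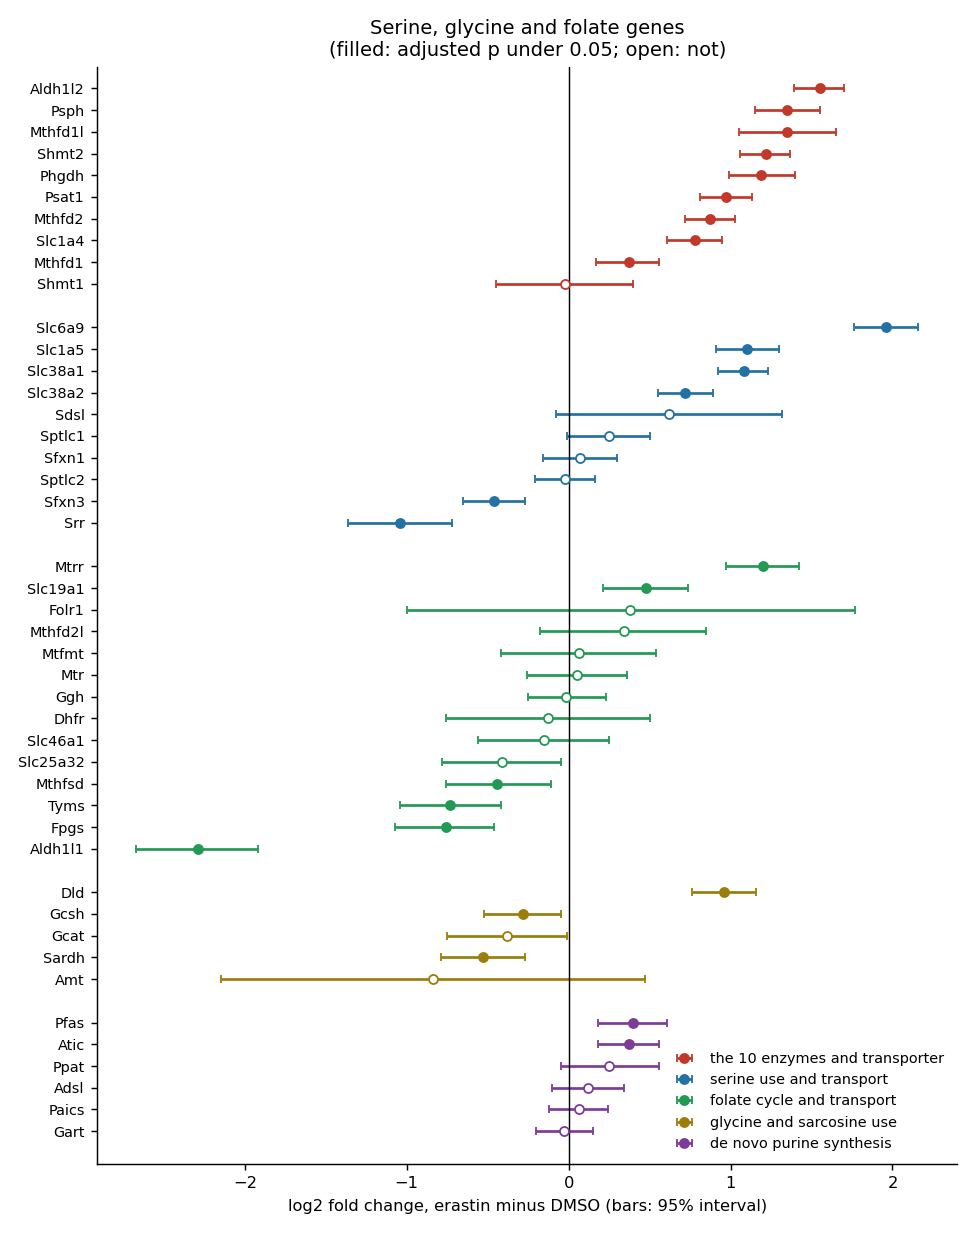
Log2 fold change, erastin minus DMSO, with its 95% interval (horizontal axis) for the 10 genes (red) and tested genes of 4 other lists (other colours); filled points have an edgeR adjusted p-value under 0.05 and open points do not. In the red block 9 of 10 points are filled and to the right of 0, while the other blocks hold points on both sides, from -2.29 for Aldh1l1 to 1.96 for Slc6a9.

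Among genes of serine and neutral amino acid transport and serine use, 4 of 10 tested were higher and 2 lower. Over all genes tested, 21.6% were higher and 21.5% lower. The 4 that rose were plasma membrane transporters. Slc6a9, the glycine transporter GlyT1, was at 23.0, 24.5 and 27.3 CPM with DMSO and at 99.9, 98.5 and 93.0 CPM with erastin. This was a 3.89-fold rise, beside 2.92-fold for Aldh1l2, and the difference between them was not tested (log2 fold change 1.96, SE 0.095, edgeR adjusted p = 1.52e-09). Slc1a5, which encodes ASCT2, the close relative of Slc1a4, rose from 66.8 ± 2.18 to 143 ± 15.5 CPM, a log2 fold change of 1.10. The sodium-coupled neutral amino acid transporters Slc38a1 and Slc38a2 rose with log2 fold changes of 1.08 and 0.72. Serine racemase, Srr, which makes D-serine, was at 24.8, 25.4 and 21.7 CPM with DMSO and at 10.4, 12.5 and 12.2 CPM with erastin, so its groups were apart in the other direction (log2 fold change -1.04, SE 0.15, edgeR adjusted p = 5.99e-05). Of the mitochondrial serine carriers, Sfxn3 fell (log2 fold change -0.46) and Sfxn1 did not pass (0.068). The serine palmitoyltransferase subunits Sptlc1 (0.25) and Sptlc2 (-0.024) and the serine dehydratase-like gene Sdsl (0.62) did not pass either, and the signs of Sfxn1 and Sptlc2 turned under another scaling or offset.

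In the folate cycle and folate transport, 3 of 15 tested genes were higher and 4 lower, shares near those of all genes tested (21.6% and 21.5%). Mtrr, the reductase that keeps methionine synthase active, was at 21.5, 23.2 and 24.4 CPM with DMSO and at 50.7, 53.9 and 53.7 CPM with erastin, a rise like those of the mitochondrial enzymes in size (log2 fold change 1.20, SE 0.10, edgeR adjusted p = 4.05e-07). Slc19a1, the reduced folate carrier, rose less, with a log2 fold change of 0.48. Thymidylate synthase, Tyms, which uses methylenetetrahydrofolate for DNA synthesis, fell from 21.5 ± 0.326 to 12.9 ± 1.09 CPM (a log2 fold change of -0.73, with an edgeR adjusted p = 0.000929). Folylpolyglutamate synthetase, Fpgs, which retains folate in the cell, fell by 0.76 on the log2 scale. Mthfsd also fell (-0.44, edgeR adjusted p = 0.0308, which ranged from 0.0169 to 0.112 over the alternative analyses). The other gene that fell was Aldh1l1, given above. Methionine synthase, Mtr (0.049), and the folate hydrolase Ggh (-0.014) did not pass, and their signs turned under other scalings.

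Of the genes of glycine cleavage and glycine or sarcosine use, 1 of 5 tested was higher and 2 lower. The shares of all genes tested, for these and the purine genes below, were 21.6% higher and 21.5% lower. Dld, a lipoamide dehydrogenase shared by glycine cleavage, the pyruvate dehydrogenase complex and other complexes, rose from 56.1 ± 5.21 to 109 ± 4.94 CPM (a log2 fold change of 0.96, with an edgeR adjusted p = 1.03e-06). Sardh, the mitochondrial sarcosine dehydrogenase, fell by 0.53 on the log2 scale. Gcsh, the lipoyl carrier protein of glycine cleavage, passed narrowly (-0.28, edgeR adjusted p = 0.0499), and lost the call in 12 of 17 alternative analyses. Gcat (-0.38) and Amt (-0.84, or -0.51 without erastin replicate 3) did not pass. In de novo purine synthesis, which takes up formyl groups from folate, Pfas (0.40) and Atic (0.37) of 6 genes were higher, and Gart (-0.029), Paics (0.061) and Adsl (0.12) were among the 4 that did not pass.

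All 6 genes listed for the ATF4 programme, which is known to act on serine synthesis genes, were higher with erastin, beside 21.6% of all genes tested. Atf4 was at 204, 210.4 and 236 CPM with DMSO and at 425, 408 and 410.2 CPM with erastin, with no overlap (log2 fold change 0.93, SE 0.074, edgeR adjusted p = 1.66e-07). Nupr1 had a log2 fold change of 1.49, Cebpb of 0.67, Cebpg of 0.58 and Trib3 of 0.56. With an offset for GC content and transcript length Cebpb had a log2 fold change of 1.23. Ddit3, which encodes CHOP, had the smallest change (0.38, edgeR adjusted p = 0.0199), and it no longer passed without DMSO replicate 1 (adjusted p = 0.0987) or without erastin replicate 3 (adjusted p = 0.102), in a range of 0.000375 to 0.102 over all alternative analyses. Their relation to the serine and folate genes was not tested.

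Because most of the genes rose together, the promoters in the RefSeq table (GRCm38.p6, 250 bases before to 50 bases after each start) were searched for 5 short motifs. Entries were found for 9 of the 10 genes, with 10 promoters in all, and Aldh1l2 was not matched. Both strands were searched, and positions are counted from the transcription start, with -1 as the last base before it and +1 as the first base after it. TGATGNAA, the letters of a C/EBP-ATF composite element, was found in 1 of the 10 promoters and in 3.97% of all 32851 promoters. TGACNNNGC, an antioxidant response core, was found in 2 of 10 and in 12.4% of all. CACGTG (E-box, 7.15% of all), TGACGTCA (CRE, 1.79%) and TGACTCA (AP-1, 5.20%) were found in none of the 10. No motif was thus common to the genes that rose within these windows, and a match of letters is not a binding site.

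Stretches of 4 promoters are shown, all from the minus strand, 5′ to 3′, in GRCm38.p6 coordinates. Slc1a4 and Phgdh carry matches, and Shmt2 and Shmt1 are the paralogs of which the first rose and the second did not. Psph, not shown, also carries an antioxidant response core (TGACGTCGC read on the opposite strand, at +5 to +13). Capitals mark the match in Slc1a4 (TGATGCAA read on the opposite strand, at -4 to +4) and in Phgdh (TGACTCCGC read on the opposite strand, at -53 to -45). Shmt2 and Shmt1 hold none of the 5 motifs, and the RefSeq starts of Phgdh and Shmt1 lie inside these genes as GENCODE M21 draws them.
Slc1a4 promoter, chr11:20332704-20332823: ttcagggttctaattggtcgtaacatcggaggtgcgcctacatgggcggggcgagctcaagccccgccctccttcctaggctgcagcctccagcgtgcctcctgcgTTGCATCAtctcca
Phgdh promoter, chr3:98339990-98340109: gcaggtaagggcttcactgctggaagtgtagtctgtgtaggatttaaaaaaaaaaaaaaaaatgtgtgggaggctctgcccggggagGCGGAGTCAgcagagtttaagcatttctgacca
Shmt2 promoter, chr10:127522445-127522564: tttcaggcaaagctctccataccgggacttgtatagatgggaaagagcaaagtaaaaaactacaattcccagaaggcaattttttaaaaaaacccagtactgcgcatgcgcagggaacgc
Shmt1 promoter, chr11:60811266-60811385: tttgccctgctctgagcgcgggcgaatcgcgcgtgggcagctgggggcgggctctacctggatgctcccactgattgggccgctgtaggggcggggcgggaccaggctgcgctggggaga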

How the data were processed

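The authors deposited 1 table of whole-number read counts per gene, with no normalization; per the submitters' processing notes reads were handled with HTSeq 0.9.1 and SAMtools on mm10. The aligner, annotation, strand setting and treatment of reads that match several genes are not given in the sources used here. Per the labels' protocols, total RNA was depleted of ribosomal RNA and sequenced as Ion Total RNA-seq libraries on an Ion Proton. Versioned Ensembl identifiers were matched to GENCODE M21 (GRCm38, the assembly of mm10), and 42462 (98%) had a symbol; coordinates and transcript lengths are from there.

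Genes were kept by filterByExpr (minimum count 10 in at least 3 libraries, total 15), which left 14000. Erastin was compared with DMSO by edgeR 4.0.16 (glmQLFit, glmQLFTest, TMM factors, R 4.3.3) with treatment as the only term, Benjamini-Hochberg adjustment over 14000 genes and a threshold of 0.05; the script was tested on simulated data. CPM are TMM-scaled. Count ratios were compared by an exact permutation test. No molecular identifiers are described, so the level worth 3 reads in a library covers counting error only.

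The members, the gene lists and the tests were chosen with earlier results of these data known. Genes named beyond the 10 are those of the lists that passed and changed by 0.5 or more on the log2 scale and up to 5 others per list by mean CPM; 1 listed gene is included in the counts, and its own values are not reported here. Alternatives were RLE (as in DESeq2 1.42.0), upper-quartile and total-count scaling, other filters, a threshold of 0.01, DESeq2's Wald test, thinning to the smallest library, a GC and length offset (mgcv 1.9.3), the replicate number as a block and leaving out each library.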

Additional observations from a re-analysis of the deposited data

How the results depend on the processing

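Of the 10 genes, 9 were higher and 0 lower with erastin in all 18 alternative analyses, the replicate block included, and the median log2 fold change of the 10 was 1.02 to 1.14 in the 17 analyses that gave one. Other pathway genes gave 10 to 11 higher and 6 to 9 lower. Over all genes, 2154 to 3456 were higher and 2151 to 3377 lower, and the median log2 fold change was -0.0014 with TMM, -0.055 with upper-quartile and 0.065 with total-count scaling. Correlations of deviations from the group means between equally numbered libraries were 0.04, 0.0038 and -0.0055. Their mean was 0.013, beside -0.0063 for libraries of unlike numbers, and 3 of 6 libraries matched best with their own number. So few libraries cannot settle whether equal numbers mean paired libraries, and the labels do not say so. The block moved no count of the 10 genes.

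Values that changed sign were all small. With total-count scaling the log2 fold change was 0.041 for Shmt1, 0.042 for Sptlc2, 0.05 for Ggh and 0.036 for Gart. With upper-quartile factors Mtr was -0.0043, and with no filter Ggh was 0.0045. With thinning Mtr was -0.017, and with thinning and the replicate block Mtr was -0.021 and Shmt1 0.0021. With the GC and length offset Sfxn1 was -0.035, Mtr -0.074 and Gart 0.016, and with that offset and the replicate block Sfxn1 was -0.028, Mtr -0.074 and Gart 0.015. Leaving out each library in turn gave -0.14 to 0.06 for Shmt1, -0.054 to 0.032 for Sptlc2, -0.025 to 0.19 for Sfxn1, -0.047 to 0.041 for Ggh and -0.057 to 0.13 for Mtr. Sdsl passed with the offset (0.85, edgeR adjusted p = 0.0472, range 0.0472 to 0.343), and Gcat passed without erastin replicate 2 (-0.52, edgeR adjusted p = 0.0433, range 0.0433 to 0.274). The cause of these changes was not tested. At 116 to 201 reads per library, Shmt1 had the widest standard error of the 10 genes (0.20).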
